A study of Mus musculus with 17 samples.

Results

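The genes described here encode the subunits of the proteasome. They were taken as every gene of the count tables whose symbol starts with Psma, Psmb, Psmc or Psmd followed by a number, without Psmc3ip and without pseudogene symbols, which gave 39 of 20572 genes. By their known roles, 8 are alpha and 11 are beta subunits of the core particle, 6 are ATPases, 3 are other base subunits, 8 are lid subunits and 3 are chaperones that assemble the cap. The study, as its titles state, looked for direct RNA targets of Musashi-2 (Msi2), an RNA-binding protein, in mouse keratinocytes. RNA abundance, ribosome footprints and sites of Msi2 on RNA were each sequenced in libraries of the same kind of culture, a spontaneously immortalized keratinocyte population of C57BL/6 origin that had been grown on mitomycin-treated NIH-3T3 J2 fibroblasts for its first 3 passages.

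The comparison was of 3 Msi2 shRNA libraries (knockdown cells) with 3 scrambled shRNA libraries (control cells), once for RNA and once for footprints. Both groups had been infected with a lentiviral vector, and both were selected with puromycin at 2 µg/ml, begun 2 days after infection and kept for 2 days. They are therefore bulk cultures of infected cells and no clone, and the number of hairpin sequences used is not given in the sources used here. Footprint cultures of both groups also received cycloheximide, a drug that stalls ribosomes, labelled as 50 mg/ml, for 1 min before harvest. The binding sites came from 5 HITS-CLIP libraries, in which ultraviolet light (200 mJ/cm2) joins protein to RNA before recovery with an Msi2 antibody. These libraries were cut with RNase at dilution factors of 1, 20, 50 and 75, the factor of 20 once at low and once at high molecular weight, and the labels name no shRNA for those cells.

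The proteasome degrades proteins that carry ubiquitin. Its barrel-shaped 20S core is a stack of outer alpha rings, which gate the entrance, and inner beta rings, which hold the proteolytic sites, and a 19S cap binds ubiquitin, removes it, unfolds the substrate with a ring of ATPases and feeds it into the core. Nucleated cells depend on the particle, its subunits are required in fixed proportion, and in mammals many of their genes are raised together by the transcription factor Nfe2l1 when proteolysis is blocked. In stratified epithelia and elsewhere, interferon brings in replacement catalytic subunits that favour the production of peptides for antigen presentation.

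Library depth, the targeted gene and the cell markers were checked first. Gene counts ranged over 9221566 to 26785876 in knockdown and 11291571 to 24931967 in control RNA libraries, and over 512256 to 2069440 in knockdown and 702602 to 2959625 in control footprint libraries. Msi2 footprints stood at 4.51, 0 and 5.08 CPM in knockdown libraries and 17.0, 16.7 and 18.2 CPM in control libraries (CPM, counts scaled to library size with TMM factors), a log2 fold change of -2.08 ± 0.41 (SE) with an adjusted p of 0.000285. Every adjusted p is from edgeR, by its quasi-likelihood test, after Benjamini-Hochberg adjustment over all genes tested. Msi2 RNA stood at 6.02 ± 0.796 CPM in knockdown and 7.32 ± 1.30 CPM in control cells (SD, n = 3 each; adjusted p = 0.283). The keratinocyte markers Krt5, Krt14, Krt15, Trp63, Itga6, Itgb4 and Cdh1 summed to 10749 to 12338 CPM of RNA in knockdown and 13346 to 16979.5 CPM in control libraries, so this sum, most of which is Krt5 and Krt14, moved with the groups. The 7 did not move one way: Krt5, Krt14, Krt15 and Cdh1 fell in RNA. The integrins Itga6 (0.55, adjusted p = 0.00819) and Itgb4 (0.57, adjusted p = 0.00217) rose in RNA and also in footprints. Log2 folds of the 7 ran from -3.41 to 0.57 in RNA and from -3.78 to 0.55 in footprints. The 7 fibroblast markers summed to 18.7 to 21.9 CPM in knockdown and 15.3 to 17.9 CPM in control libraries, without overlap, with Col1a2, Col3a1 and Pdgfrb at 0 and Pdgfra higher in knockdown cells (1.18, adjusted p = 0.0258). The 4 immune markers summed to 8.29 to 13.4 CPM in knockdown and 16.0 to 18.6 CPM in control libraries, with Cd3e at 0 and Cd68 lower in RNA (-0.78, adjusted p = 0.00323) and in footprints (-1.25, adjusted p = 0.0313). The 3 endothelial markers summed to 3.28 to 4.99 CPM in knockdown and 1.18 to 2.48 CPM in control libraries, with Kdr higher in RNA (1.29, adjusted p = 0.00590), and the 4 melanocyte markers to 1.73 to 3.12 CPM in knockdown and 1.03 to 2.01 CPM in control libraries, with overlap and with Dct at 0. The part of these markers in the results below was not tested. The labels do not describe the libraries of a group as separate cultures, and the tests therefore weigh differences only against the variation among these libraries, which could be technical. In bulk RNA, less RNA per cell and fewer cells of a type cannot be told apart.

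RNA of the proteasome subunits was lower in knockdown than in control cells across the core and the ATPase ring. Of the 36 subunit genes with enough reads to test, 27 fell and 0 rose at an adjusted p under 0.05, against 21.7% of all 11117 tested genes that fell and 22% that rose. A further 2 of the 36 passed an unadjusted p under 0.05 only, 29 in all, and DESeq2's Wald test also called 0 higher. The median log2 fold change over the 36 was -0.43, beside 0.0040 over all tested genes, and the quartiles of the subunits were -0.54 and -0.32. Below 0 were 34 of the 36, beside 49.7% of all tested genes. Every knockdown library was below every control library in 30 of the 36 genes, beside 26.2% of all tested genes, and above in 0, beside 26.8%.

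**Figure D1:**
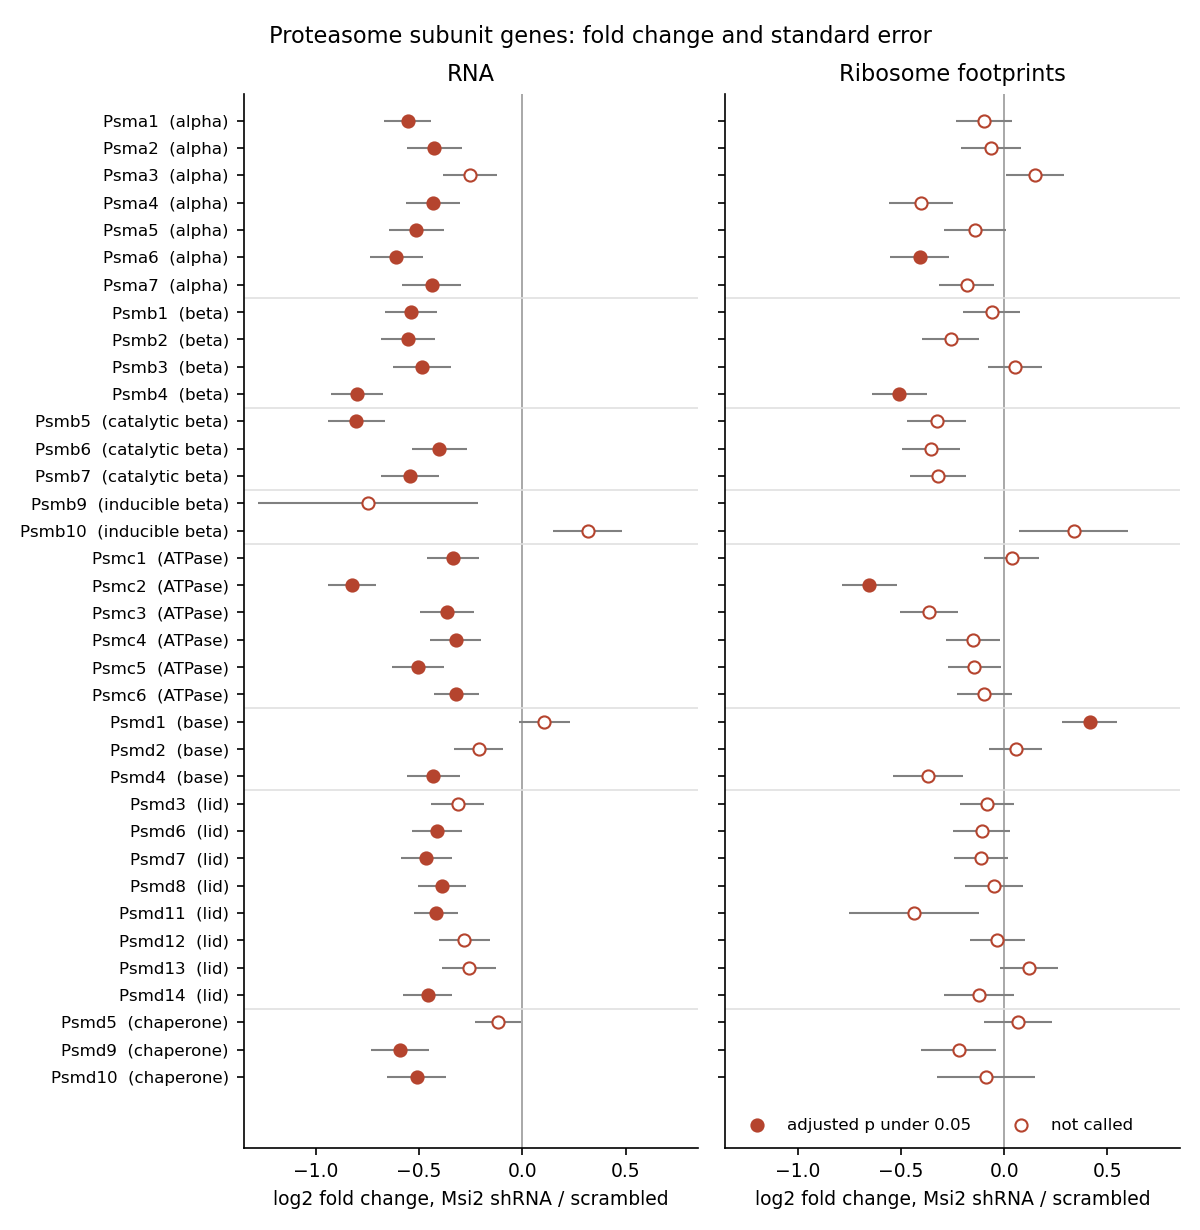
Log2 fold change (Msi2 shRNA over scrambled shRNA) of each tested subunit gene, in RNA on the left and in ribosome footprints on the right, with bars of 1 standard error (3 libraries per group) and subunits ordered by role. Filled points passed an adjusted p under 0.05: 27 subunits fell in RNA, while in footprints Psmc2, Psmb4 and Psma6 fell and Psmd1 rose.

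The largest decrease of RNA was that of Psmc2, an ATPase of the ring that unfolds substrates. Its RNA stood at 255, 238 and 249.9 CPM in knockdown libraries and at 459, 453 and 404 CPM in control libraries. The groups are far apart, with the highest knockdown library well below the lowest control library. The log2 fold change was -0.82 ± 0.12 (SE, adjusted p = 4.04e-05). Psmb4, a beta subunit without a proteolytic site, stood at 191, 165 and 196 CPM in knockdown libraries and at 329, 359 and 272 CPM in control libraries. These groups did not overlap either, and the fold was -0.80 ± 0.13 (adjusted p = 0.000120).

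All 3 standard catalytic subunits fell in RNA. Psmb5, which carries the chymotrypsin-like site that cancer drugs such as bortezomib block, stood at 195, 164 and 187 CPM of RNA in knockdown libraries and 340.1, 360.2 and 252 CPM in control libraries. No knockdown library reached the lowest control library, replicate 3, and the fold was -0.80 ± 0.14 (adjusted p = 0.000205). Psmb7, with the trypsin-like site, stood at 292, 236 and 294 CPM in knockdown and 420.0, 455 and 324 CPM in control libraries, with a fold of -0.54 ± 0.14 (adjusted p = 0.00479). Psmb6, with the caspase-like site, had 299.5, 251 and 314 CPM in knockdown and 386, 431 and 325 CPM in control libraries. Its groups were close at their edges, and its fold of -0.40 ± 0.13 (adjusted p = 0.0209) lost its call under 6 of 12 alternatives, among them leaving out knockdown replicate 1 (adjusted p = 0.0526), knockdown replicate 2 (0.110), control replicate 1 (0.0657) or control replicate 2 (0.0524). RefSeq lists 6 pseudogenes named after 4 subunits (Psma5, Psmb5, Psmb6 and Psmb7). In RNA, reads aligned to several places, 13.4 to 24.5% per library, were tallied apart from the gene counts. Reads shared with such copies can therefore be missing from the RNA levels of these 4 genes, which was not tested. For footprints, how such reads were handled is not given in the sources used here.

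The interferon-inducible counterparts of these 3 subunits did not follow them past the test. Psmb10, the counterpart of Psmb7, had 25.9, 19.1 and 26.3 CPM of RNA in knockdown libraries and 18.5, 23.2 and 15.2 CPM in control libraries. The groups overlapped, through the low knockdown replicate 2 and the high control replicate 2, and the fold was 0.32 ± 0.17 (adjusted p = 0.136). It passed the test without control replicate 2 (0.48, adjusted p = 0.0252) and after removal of the trend of counts with gene span (0.53, adjusted p = 0.00754). Psmb9, the counterpart of Psmb6, rested on 6 to 25 reads per library, at 0.623, 0.801 and 0.488 CPM in knockdown and 1.28, 0.436 and 1.54 CPM in control libraries, with a fold of -0.75 ± 0.53 (adjusted p = 0.268). Psmb8, the counterpart of Psmb5, had 1 to 8 reads per library and was too low to test, at 0.519, 0.320 and 0.188 CPM in knockdown and 0.0512, 0.0873 and 0.685 CPM in control libraries. A difference in Psmb8 was not detectable at this depth, and the error of Psmb9 is large. Psmb11, the thymus-specific catalytic subunit, had 0 to 2 RNA reads per library. Psma8, an alpha subunit of the testis, had none in any of the 12 libraries, which allows up to 0.0288 CPM of RNA and 0.318 CPM of footprints (3 counts over the 6 libraries of each kind, counting error only).

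By role, 6 of 7 tested alpha subunits fell in RNA, with Psma3 (-0.25 ± 0.13, adjusted p = 0.125) as the exception. Psma6 and Psma1 had the largest folds of the ring, -0.61 ± 0.13 (adjusted p = 0.00105) and -0.56 ± 0.11 (adjusted p = 0.000985). All 4 non-catalytic beta subunits fell (Psmb1, Psmb2, Psmb3 and Psmb4, from -0.80 to -0.49), as did all 3 standard catalytic ones. All 6 ATPases fell, but apart from Psmc2 and Psmc5 (-0.50 ± 0.13, adjusted p = 0.00394) their folds were small, -0.32 to -0.37, and the calls of Psmc1, Psmc3, Psmc4 and Psmc6 were each lost under 5 to 7 of 12 alternatives. Leaving out knockdown replicate 1, 2 or 3 or control replicate 1 ended each of these calls (adjusted p from 0.0587 to 0.166), and leaving out control replicate 2 those of Psmc1, Psmc3 and Psmc4. Of the 14 tested constitutive core subunits 13 fell, with a median of -0.53, and of the 20 cap genes 14 fell, with a median of -0.38. No test of the difference between core and cap was made.

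In the rest of the cap, calls were mixed, and neither of the large scaffolds of the base passed the test. Psmd1, which anchors ubiquitin receptors on the base, had 352, 289 and 350.1 CPM of RNA in knockdown libraries and 304, 337 and 279 CPM in control libraries. The groups overlapped, with a fold of 0.11 ± 0.12 (adjusted p = 0.511), and the sign turned to -0.078 (adjusted p = 0.657) when the trend with gene span was removed. Psmd2, its partner scaffold, had a fold of -0.21 ± 0.12 (adjusted p = 0.158), while the ubiquitin receptor Psmd4 fell by 0.43 ± 0.13 on the log2 scale (adjusted p = 0.0127). Of 8 lid subunits 5 fell: Psmd14, the deubiquitinase that strips ubiquitin from substrates (-0.46 ± 0.12), its partner Psmd7 (-0.47 ± 0.12), Psmd11 (-0.42 ± 0.11), Psmd6 (-0.41 ± 0.12) and Psmd8 (-0.39 ± 0.12). Psmd3 (-0.31, adjusted p = 0.0553), Psmd12 (-0.28, 0.0792) and Psmd13 (-0.26, 0.119) did not pass. Of the 3 chaperones of base assembly, Psmd9 (-0.59 ± 0.14, adjusted p = 0.00293) and Psmd10 (-0.51 ± 0.14, adjusted p = 0.00784) fell, and Psmd5 had a fold of -0.12 ± 0.11 (adjusted p = 0.407).

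The subunits varied together from library to library within a group. Against the mean of the control, the median subunit lay at -0.40, -0.52 and -0.36 on the log2 scale in knockdown RNA libraries 1, 2 and 3 and at 0.044, 0.15 and -0.23 in control libraries 1, 2 and 3. The groups did not overlap, but control replicate 3 lay closer to the knockdown libraries than to the other controls. It was the lowest control library for 34 of 36 subunits, and knockdown replicate 2 was the lowest knockdown library for 34 of 36. The share of RNA reads that aligned to several places was 19.8, 24.5 and 21.2% in the knockdown libraries and 13.4, 14.9 and 17.4% in the control libraries. It was thus higher in every knockdown library, and within the groups it was highest in knockdown replicate 2 and control replicate 3. Among the other libraries of each group, the one with the higher share had the higher subunit median. The part of this share in the result was not tested. The count of 27 lower subunits was 16 without knockdown replicate 2, where 34 of 37 tested folds lay below 0, and 31 without control replicate 3, where 34 of 36 did. Without knockdown replicate 2 the calls of Psma2, Psma4, Psma7, Psmb3, Psmb6, Psmd4, Psmd6 and the 4 ATPases named above ended. Psma2 also missed the threshold without knockdown replicate 1 or control replicate 2, Psma7 without control replicate 1 or 2, Psmd4 without knockdown replicate 1 or control replicate 1, Psmd6 without control replicate 1 and Psmd8 without knockdown replicate 3. Without control replicate 3, Psma3 (adjusted p = 0.0195), Psmd3 (0.00960), Psmd12 (0.00446) and Psmd13 (0.0220) passed as well. In 15 of the 27 genes the call held under all 12 alternatives, among them Psmc2, Psmb4, Psmb5, Psmb7, Psma6, Psma1, Psmc5 and Psmd14.

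**Figure D2:**
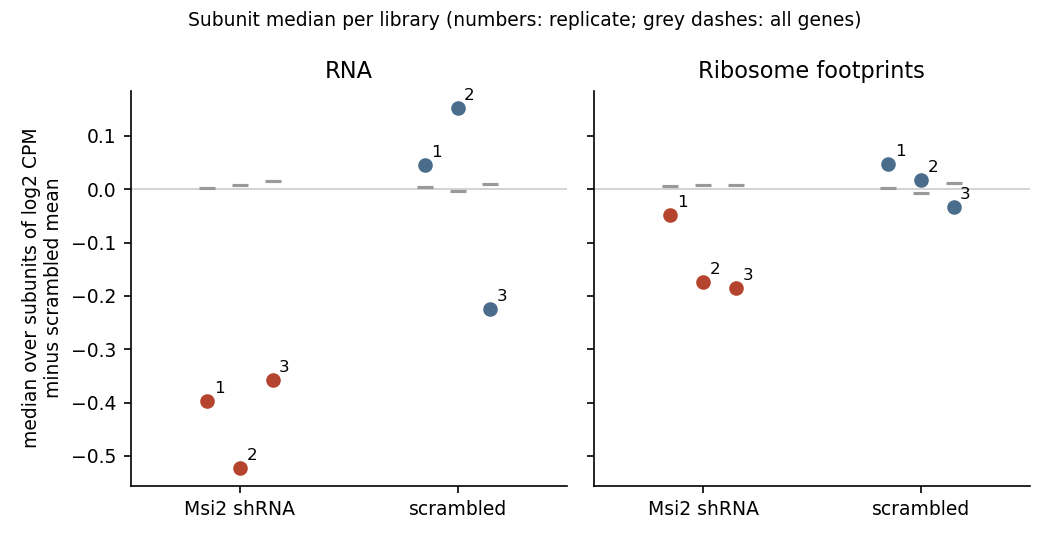
Median over subunit genes of the log2 CPM in each library minus the mean of the scrambled libraries, for RNA (36 genes) on the left and footprints (35 genes) on the right, with replicate numbers at the points and the same median over all tested genes as grey dashes. In RNA the Msi2 shRNA libraries lie between -0.52 and -0.36 and scrambled replicate 3 at -0.23, and in footprints the groups are separated by less, -0.19 to -0.048 against -0.033 to 0.046.

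Ribosome footprints, which count ribosomes on the coding sequence, had a smaller median fold over the subunits than RNA. No subunit passed the test of the footprint-to-RNA ratio given below. Of 35 subunits tested in footprints 3 fell and 1 rose, against 7.38% of all 8969 tested genes that fell and 8.76% that rose. The median log2 fold change was -0.11 over the subunits and -0.011 over all tested genes. Below 0 were 27 of the 35, beside 51.1% of all tested genes. Libraries did not overlap, with knockdown lower, for 5 subunits (15.3% of all tested genes) and, with knockdown higher, for 1 (16%). The share of subunits that fell in footprints, 8.57%, was thus near that of all genes. The per-library medians were -0.048, -0.17 and -0.19 in knockdown and 0.046, 0.018 and -0.033 in control libraries, and the median fold was -0.18 without knockdown replicate 1 and -0.064 with the span trend removed.

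Psmc2 fell in footprints too, with 259, 225 and 221 CPM in knockdown libraries and 375, 356 and 387 CPM in control libraries. The groups were well apart, and the fold was -0.65 ± 0.13 (adjusted p = 0.000435). Psmb4 had 253, 199 and 247 CPM of footprints in knockdown libraries and 334, 340.0 and 332 CPM in control libraries. The control libraries were within a few CPM of each other, all above the knockdown libraries, and the fold was -0.51 ± 0.13 (adjusted p = 0.00621). These 2 calls held under all 12 alternatives. Psma6 had 167, 151 and 144 CPM in knockdown and 233, 183 and 202 CPM in control libraries, without overlap, and its fold of -0.41 ± 0.14 (adjusted p = 0.0422) lost its call under 6 of 12 alternatives. Those were DESeq2's Wald test, no filter on low counts, and leaving out knockdown replicate 1 (adjusted p = 0.0772), 2 (0.0898) or 3 (0.223) or control replicate 1 (0.235).

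Psmd1 was the only subunit whose footprints rose. It had 374, 287 and 361 CPM of footprints in knockdown libraries and 266, 256 and 252 CPM in control libraries. The lowest of the knockdown libraries, replicate 2, was still above every control library, and the fold was 0.41 ± 0.13 (adjusted p = 0.0278). The call was lost with DESeq2's Wald test (adjusted p = 0.0526) and without knockdown replicate 1 (0.175), knockdown replicate 3 (0.173), control replicate 1 (0.0674) or control replicate 2 (0.0612). The span of the gene overlaps that of Htr2b, a serotonin receptor gene. Whether their counted coding sequences share bases was not annotated here, and the strand setting of the counting is not given in the sources used here. The same holds for Psma4 with AY074887 and Psmd10 with Atg4a.

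The standard catalytic subunits were all below 0 in footprints without passing the test. Psmb5 had 302, 205 and 253 CPM in knockdown and 356, 341 and 265 CPM in control libraries, which overlapped (-0.33 ± 0.14, adjusted p = 0.120). Psmb6 had 306, 273 and 284 CPM in knockdown and 322, 335 and 467 CPM in control libraries, without overlap and with the high control replicate 3 apart from the others (-0.36 ± 0.14, adjusted p = 0.0810). Psmb7 had 191, 173 and 173 CPM in knockdown and 245, 205 and 224 CPM in control libraries, without overlap (-0.32 ± 0.14, adjusted p = 0.108). The inducible Psmb10 had 22.5, 15.9 and 26.4 CPM in knockdown and 18.3, 19.4 and 12.6 CPM in control libraries, which overlapped (0.34 ± 0.26, adjusted p = 0.433). Psmb8 and Psmb9 had at most 3 footprint reads in any library. Of the subunits outside the 4 calls, Psmb5 passed without control replicate 3 (adjusted p = 0.0235), Psmd4 without control replicate 3 (0.00977), Psma4 without knockdown replicate 1 (0.0256) or control replicate 2 (0.0299), and Psmc3 without knockdown replicate 2 (0.0416) or control replicate 1 (0.0354).

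**Figure D3:**
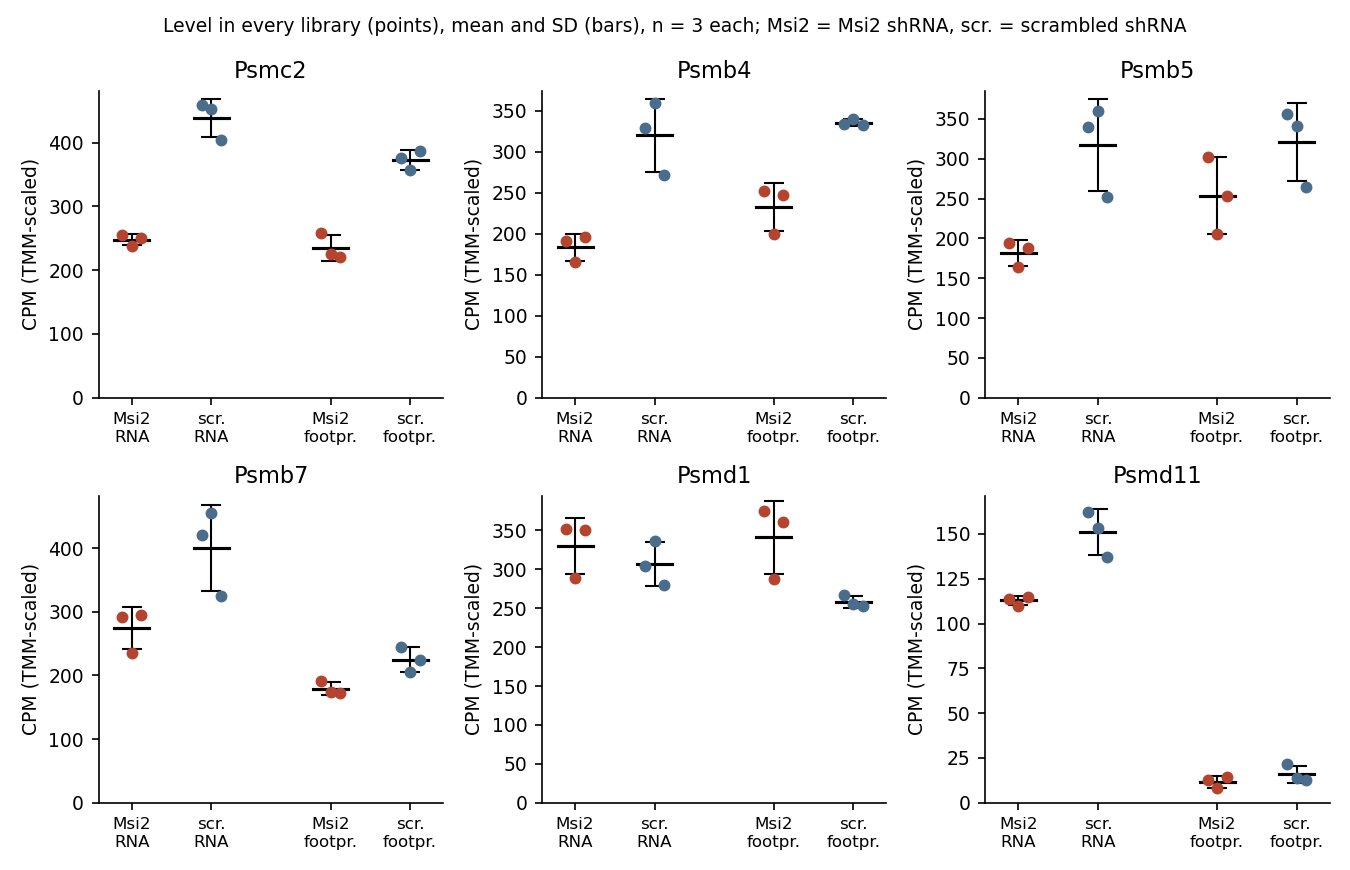
CPM (TMM-scaled) of 6 subunit genes in every library, for RNA and for footprints, with Msi2 shRNA in red and scrambled shRNA in blue, each point a library and the bars the mean and SD of 3. Psmc2 and Psmb4 are lower in knockdown libraries in both assays, Psmd1 footprints are higher in knockdown libraries, at 341 CPM on average against 258 CPM, while its RNA groups overlap, and Psmd11 has few footprints in either group, 11.6 CPM against 16.0 CPM.

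The change of the footprint-to-RNA ratio, or translational efficiency, was tested as an interaction term of knockdown with assay in 1 model of the 12 libraries. Of 35 tested subunits 0 rose and 0 fell, against 0.129% of all 10821 tested genes that rose and 0.0739% that fell. The smallest adjusted p was 0.252, that of Psmb3, a non-catalytic beta subunit, and 8 subunits had an unadjusted p under 0.05 (Psma1, Psma3, Psmb1, Psmb3, Psmb5, Psmc1, Psmc5 and Psmd7); DESeq2's Wald test also called 0. As a description, all 35 folds of the ratio lay above 0, from 0.00029 for Psmd11 to 0.55 for Psmb3. Their median was 0.31, beside 0.017 over all tested genes, of which 48.2% lay below 0. Under the alternatives 29 to 34 of 35 to 38 tested lay above 0, and with DESeq2's size factors 32 of 35 did, with a median of 0.26. The median was 0.16 without RNA knockdown replicate 2 and also 0.16 without RNA control replicate 2. The ratio contains the RNA value, so its sign is not independent of the RNA result above.

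Among the 35 tested subunits Psmb3 had the largest fold of the ratio, which did not pass the test (adjusted p = 0.252). Its RNA stood at 273, 238 and 282 CPM in knockdown libraries and 369.6, 445 and 295 CPM in control libraries, and its footprints at 679.8, 724 and 599.9 CPM in knockdown libraries and 629.7, 721 and 570.4 CPM in control libraries. RNA groups did not overlap (-0.49 ± 0.14, adjusted p = 0.0103), while footprint groups overlapped throughout (0.05 ± 0.13, adjusted p = 0.844). Its ratio had a fold of 0.55 ± 0.20.

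Over the 35 subunits tested in all 3 ways, the footprint fold was above the RNA fold in 34, with Psmd11 as the exception. RNA and footprint folds ranked in a similar order, with Pearson's r of 0.79 and Spearman's rho of 0.66, as a description over genes that share the same libraries. Over all 8918 genes tested in all 3 ways r was 0.74. The 27 subunits that fell in RNA had a median footprint fold of -0.15 and a median ratio fold of 0.32. All 2182 genes that fell in RNA and were tested in all 3 ways had a median RNA fold of -0.55, a footprint fold of -0.33 and a ratio fold of 0.26, and the ratio fold was above 0 in 80.8% of them. Of the 27 subunits 3, or 11.1%, also fell in footprints, beside 25.1% of those 2182 genes; no test of that difference was made.

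**Figure D4:**
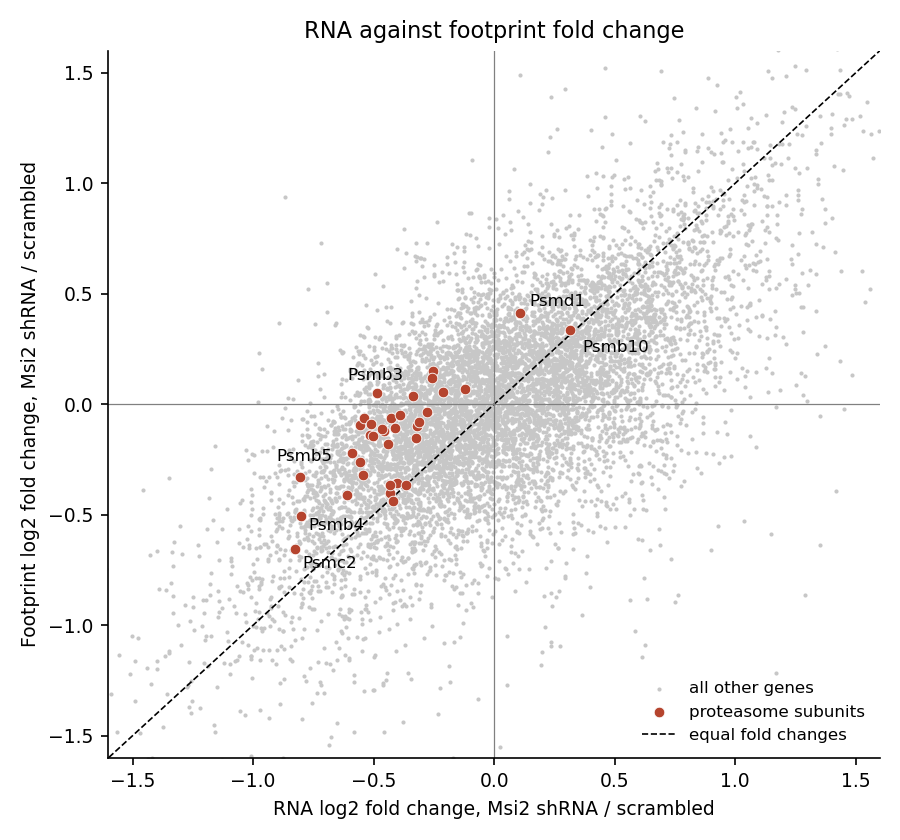
RNA log2 fold change (x axis) against footprint log2 fold change (y axis), Msi2 shRNA over scrambled shRNA, with the 35 proteasome subunits in red, all other genes tested in all 3 ways in grey, and the line of equal folds dashed; 151 other genes lie outside the axes. The subunits lie left of 0 except Psmd1 and Psmb10, and all but Psmd11 lie above the dashed line, with a median footprint fold of -0.11 and a median RNA fold of -0.43.

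Footprints per RNA in control cells differed between the subunits. Here the ratio of footprint CPM to RNA CPM is used because both assays counted reads over the same coding sequence, so gene length cancels. The median log2 ratio was -0.16 over 35 subunits and 0.12 over all tested genes, and 27 of 35 subunits lay below the median of all tested genes. It was highest for the base chaperone Psmd9, at 0.85, with 57.6, 63.8 and 48.8 CPM of footprints in knockdown libraries and 58.0, 65.1 and 78.5 CPM in control libraries, against RNA of 26.4, 21.7 and 26.2 CPM in knockdown and 42.2, 38.8 and 30.6 CPM in control libraries. Psmb3 followed at 0.79.

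Psmd11, a lid subunit that ties the lid to the core, was far below the other subunits. Its log2 ratio in control cells was -3.24, lower than in all but 0.846% of tested genes, with Psmb7 next at -0.83. Its footprints came to 12.5, 7.97 and 14.2 CPM in knockdown libraries and 21.4, 14 and 12.6 CPM in control libraries, from 4 to 49 reads per library. Its RNA stood at 114, 110.0 and 115 CPM in knockdown and 162, 153 and 137 CPM in control libraries, without overlap (-0.42 ± 0.11, adjusted p = 0.00510). The low ratio was present in both groups, at -3.29 in knockdown cells, and footprint groups overlapped (-0.44 ± 0.31, adjusted p = 0.387). The alignment and annotation behind its footprint count were not tested.

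**Figure D5:**
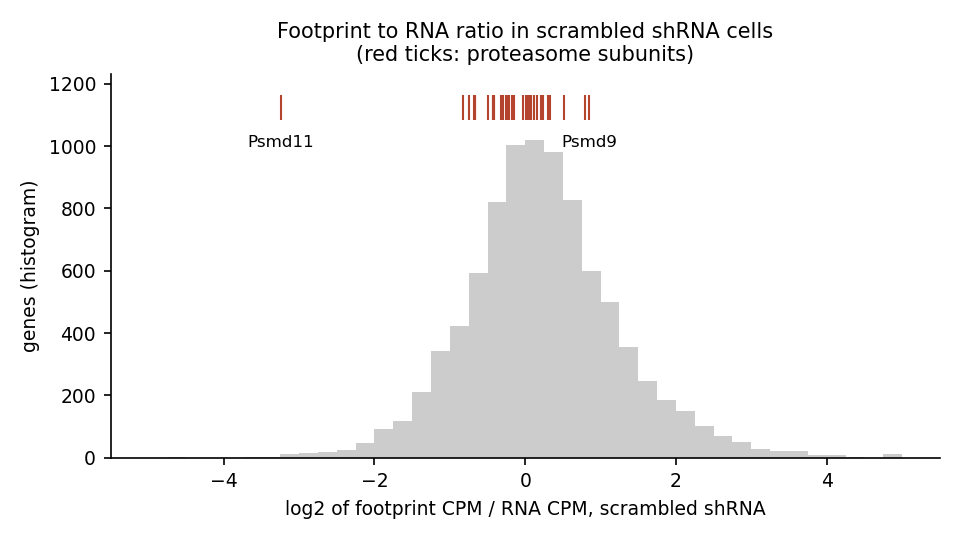
Histogram of the log2 ratio of footprint CPM to RNA CPM in scrambled shRNA cells, with the 35 proteasome subunits as red ticks above. The histogram holds genes tested in all 3 ways, with values beyond the axis placed in the end bins. All subunits but Psmd11, at -3.24, lie between -0.83 (Psmb7) and 0.85 (Psmd9).

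Msi2 sites on the subunit RNAs were sparse in the CLIP data. In the authors' list of 2671 peaks in 3′ UTRs of 1199 genes, 1 of the 39 subunits, Psmb7, has a peak, beside 10.3% of all genes tested in RNA. The peak lies at chr2:38588040-38588154 (mm10) on the minus strand, with the authors' total height of 11, near the minimum of 10 in the list and below its median of 16. Its reads came to 0, 1, 1, 8 and 1 in the libraries of dilution 1, 20 at low molecular weight, 20 at high molecular weight, 50 and 75. Most of them are from 1 library, that of dilution 50, which also had the most reads in peaks, 61629 against 6608 to 53712 in the others. The peak extends 6 bases past the RefSeq boundary of the gene. With peaks of a height of 20 or more, 0 subunits are left.

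The list of all peaks adds Psmd1. That peak lies at chr1:86087289-86087422 on the plus strand, with a height of 15 and 1, 1, 4, 3 and 6 reads in the same order of libraries, 22670 bases inside the gene from its RefSeq start. Whether it lies in an exon or an intron was not annotated here. Of the 2 subunits with a peak, Psmb7 fell in RNA and Psmd1 rose in footprints. Among the other caps and receptors, the 3′ UTR list holds 2 peaks each for the activator Psme3, the deubiquitinase Usp14 and the ubiquitin ligase Ube3c, and 1 each for Txnl1 and Zfand5. Among genes of the Nfe2l1 branch it holds 1 each for Nfe2l1 and its partner Mafg. The heights of these peaks of both lists were 10 to 20. Among genes of antigen processing it holds peaks for B2m (heights 13 and 106), Tapbp (39) and H2-K1 (11). Of all genes tested in RNA, 10.3% have a peak in the 3′ UTR list.

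The promoters of the subunits were searched for short motifs, among them that of Nfe2l1, since many of these genes fell together in RNA. RefSeq windows (GRCm38.p6, 250 bases before to 50 after a start) were found for 32 of the 39 genes, 34 windows in all; Psma8, Psmb1, Psmb2, Psmb7, Psmc3, Psmd3 and Psmd7 have none. The core of the antioxidant response element, TGACNNNGC on either strand, which Nfe2l1 and its relatives bind, is in 5 of the 34 windows, or 14.7%, beside 12.4% of all 32851 windows and 14.4% of the 10798 windows of tested genes. All 5 are shown as examples of the element near subunit genes, 5′ to 3′ on the gene's strand, with the element in capitals (its complement where it lies on the other strand):
Psmb5, chr14:54618024-54618052, minus strand: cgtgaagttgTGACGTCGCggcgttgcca
Psmb6, chr11:70525338-70525366, plus strand: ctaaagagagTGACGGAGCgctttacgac
Psmd9, chr5:123228149-123228177, plus strand: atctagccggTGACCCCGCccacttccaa
Psmc6, chr14:45329587-45329615, plus strand: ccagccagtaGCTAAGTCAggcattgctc
Psmd12, chr11:107479278-107479299, plus strand: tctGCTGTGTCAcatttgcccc
The first base of the element lies at position -47 in Psmb5, -9 in Psmb6, -31 in Psmd9, -227 in Psmc6 and -247 in Psmd12, relative to the RefSeq start, and the stretch of Psmd12 is short because the window begins there.

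Of these 5 genes Psmb5, Psmb6, Psmd9 and Psmc6 fell in RNA, and Psmd12 did not pass. Their median RNA fold was -0.40, and that of the 25 tested genes whose windows lack the letters was -0.43. The core of the ETS family site, CCGGAAG on either strand, is in 11 of 34 windows, or 32.4%, beside 8.86% of all windows and 18.2% of those of tested genes. Windows of 10 subunits hold it, among them the largest decrease, Psmc2, and the alpha subunit Psma6, shown with the site in capitals:
Psmc2, chr5:21786713-21786739, plus strand: cgcggagctaCTTCCGGtggggaagag
Psma6, chr12:55398813-55398839, plus strand: cgccggtgctCCGGAAGcagtagccat
The 10 genes had a median RNA fold of -0.37, and the 20 without the site -0.45. CCAAT is in 38.2% of the subunit windows, beside 37.4% of all windows and 37.9% of those of tested genes. The GC box GGGCGG is in 55.9%, beside 35.7% and 64.4%, and the AP-1 letters TGANTCA are in 5.88%, beside 7.81% and 5.15%, all counted on both strands. AP-1 letters can share bases with the antioxidant element; in the 5 windows printed they do not overlap it.

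Gene span, which showed a trend with RNA fold over all genes, showed little relation to the order of the subunits. The median span of the 36 tested subunits was 12362.5 bp, beside 23650.0 bp over 10415 tested genes with a position. Spearman's rho of RNA fold with span was 0.053 over the subunits and 0.24 over all those genes, as a description over genes of the same libraries. With each library's trend removed, 24 subunits fell in RNA, and Psmb6, Psmc3 and Psmc4 lost their calls. The median RNA fold of the 36 was then -0.38, against -0.43 before. Decreases became smaller for Psmb4 (-0.59), Psmb5 (-0.64) and Psmb6 (-0.19), and larger for Psma6 (-0.67), Psmb7 (-0.69) and Psmd11 (-0.52).

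Genes that assemble or handle the particle without being part of it fell in RNA too, in 7 of 7 tested, with a median of -0.60, beside 21.7% of all tested genes that fell. The core chaperone Psmg3 stood at 16.1, 13.2 and 15.1 CPM in knockdown and 28.3, 31.2 and 23.1 CPM in control libraries, without overlap (-0.90 ± 0.15, adjusted p = 0.000159). Psmg2, which acts in a pair with Psmg1 on the alpha ring, had a fold of -0.60 ± 0.11 (adjusted p = 0.000316), Psmg1 one of -0.72 ± 0.13 (adjusted p = 0.000385), and the beta ring maturation factor Pomp one of -0.54 ± 0.13 (adjusted p = 0.00408). In footprints 1 of the 7 fell, beside 7.38% of all tested genes. It was Ublcp1, a nuclear phosphatase that acts on the proteasome, which fell by 1.16 ± 0.24 on the log2 scale (adjusted p = 0.000499), while Psmg3 had -0.52 ± 0.24 (adjusted p = 0.152).

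The caps and receptors outside the symbol rule were split. Of 14 tested, 6 fell and 2 rose in RNA, beside 21.7% of all tested genes that fell and 22% that rose. Of 13 tested in footprints 0 did either in edgeR or in DESeq2's Wald test, with 0 at an unadjusted p under 0.05, beside 7.38% of all tested genes that fell and 8.76% that rose. Uchl5, a deubiquitinase of the cap (-0.62 ± 0.12, adjusted p = 0.000563), the PA28 subunits Psme1 (-0.51 ± 0.12, adjusted p = 0.00322) and Psme2 (-0.45 ± 0.11, adjusted p = 0.00346), the ubiquitin receptor Adrm1 and the small lid subunit Shfm1 (-0.59 ± 0.15, adjusted p = 0.00497) were among those that fell. The alternative cap Psme4, or PA200, rose by 0.45 ± 0.12 (adjusted p = 0.00545) and the ligase Ube3c by 0.32 ± 0.12 (adjusted p = 0.0344). The smallest footprint p-values of the list were those of AI314180 (0.27 ± 0.16, adjusted p = 0.259) and Adrm1 (-0.22 ± 0.13, adjusted p = 0.262).

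Genes of the Nfe2l1 branch, in which the factor is pulled from the endoplasmic reticulum, freed of its sugars and cut, showed 1 decrease and 1 increase among 12 in RNA, below the shares of all tested genes (21.7% fell and 22% rose), and 2 decreases in footprints, beside 7.38% of all tested genes. Nfe2l1 itself had a fold of -0.25 ± 0.13 (adjusted p = 0.121) in RNA. Ngly1, the enzyme that removes its sugars, fell to 7.58, 10.2 and 9.98 CPM in knockdown libraries, against 19.7, 16.2 and 22.3 CPM in control libraries (-1.04 ± 0.17, adjusted p = 0.000149), and it fell in footprints as well (-1.07 ± 0.33, adjusted p = 0.0189). The ubiquitin ligase Syvn1 rose in RNA by 0.44 ± 0.13 (adjusted p = 0.0101), and its partner Sel1l fell in footprints by 0.79 ± 0.17 on the log2 scale (adjusted p = 0.000775). The protease Ddi2, which cuts the factor, had a footprint fold of -0.54 ± 0.20 (adjusted p = 0.0541).

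A list of 14 genes that encode, activate or deliver ubiquitin, with the endoplasmic reticulum chaperone Hspa5 among them, showed 4 decreases and 3 increases in RNA, near the shares of all tested genes (21.7% fell and 22% rose). The increases included that of the activating enzyme Uba6. The autophagy receptor Sqstm1, which also binds ubiquitin, fell to 85.3, 107 and 90.2 CPM in knockdown libraries, against 216, 155 and 165 CPM in control libraries (-0.93 ± 0.13, adjusted p = 5.47e-05). In footprints it was the 1 gene of the list that fell (-0.91 ± 0.14, adjusted p = 1.15e-05), and 7.38% of all tested genes did. The 3′ UTR peak list holds 4 peaks for Sqstm1, with heights of 14 to 17. It also holds peaks for 3 genes of the ubiquitin list that passed the test in neither assay, among them the shuttles Ubqln1 (1 peak) and Ubqln2 (2 peaks). Of all genes tested in RNA, 10.3% have a peak there. The ubiquitin gene Ubb had a footprint fold of -0.41 ± 0.16 (adjusted p = 0.0704). Of the genes of antigen processing 11 were tested in RNA, with 2 increases, of the interferon-linked factors Irf1 (1.40 ± 0.23, adjusted p = 0.000134) and Irf9 (1.56 ± 0.28, adjusted p = 0.000296), and 1 decrease, of B2m (-0.35 ± 0.12, adjusted p = 0.0203), beside the same 22% and 21.7% of all tested genes. In footprints, where 8.76% of all tested genes rose and 7.38% fell, 0 of 9 passed in edgeR or in DESeq2's Wald test, with 1 at an unadjusted p under 0.05, with Irf1 at 1.31 ± 0.52 (adjusted p = 0.0817) and the peptidase Erap1 at 0.37 ± 0.22 (adjusted p = 0.265).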

How the data were processed

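The authors deposited whole-number counts of reads over each gene's coding sequence for 6 RNA and 6 footprint libraries, for which the submitters' processing notes name TopHat, HTSeq, DESeq and the build mm10, without versions. Per the deposited description, each CLIP peak has a signal (total height over the 5 libraries), the counts of overlapping reads per library, and the number of libraries with a read (unit: other); cutadapt and Novoalign are named in the submitters' processing notes, and the peak caller is not given in the sources used here. Summary lines of the RNA table (32.3 to 35.2% of reads in no counted feature, 13.4 to 24.5% aligned to several places, 0.175 to 0.228% ambiguous) stayed out of library sizes and tests.

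All genes were fitted with edgeR 4.0.16 (R 4.3.3), after filterByExpr (minimum count 10, total 15), TMM, robust quasi-likelihood F test by group, Benjamini-Hochberg adjustment over all genes tested, threshold 0.05. RNA and footprints were fitted apart, and translational efficiency as the interaction of assay and knockdown over 12 libraries. The code was tested on simulated data. Alternatives were DESeq2 1.42.0 (size factors, Wald test), no filter, 10 CPM in 3 libraries, a replicate block, removal of each library's loess trend with gene span, each library left out in turn, and other peak sets. Fold changes are knockdown over control.

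The members and lists were chosen with earlier results of these data known, so lists are described by counts and medians only. Values in every library are given for the called members with the smallest p, the catalytic pairs and members with a peak. They are also given for the extremes of the footprint-to-RNA ratio in control cells. Of the other lists, the 2 genes with the smallest p in RNA and in footprints are named. Other genes named were chosen after their values were seen. Coding lengths were not used here, so the footprint-to-RNA ratio in control cells, chosen after the data were seen, stands in for density. Gene positions come from RefSeq (GRCm38.p6), which placed all 39 genes. Low counts limit precision most in footprints, where the shallowest library holds 512256 counts.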

Additional observations from a re-analysis of the deposited data

How the results depend on the processing

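Leaving out each library in turn gave 16 to 31 lower and 0 to 1 higher subunits in RNA, and 2 to 5 lower and 0 to 1 higher in footprints, with a median footprint fold of -0.185 to -0.109. With the span trend removed, 1 subunit was higher in RNA (Psmb10) and the RNA fold of Psmd1 was -0.078; removal of that trend gave 24 lower subunits in RNA. DESeq2's Wald test called 0 higher in footprints. Lower subunits in RNA numbered 27 with DESeq2's size factors or the 10 CPM filter, and 28 with the Wald test or no filter. Subunits with a 3′ UTR peak numbered 0 at a height of 20 or more and 2 in the list of all peaks. With replicate numbers as a block, 19 subunits were lower in RNA, 4 lower and 1 higher in footprints and 0 in translational efficiency. But the numbers do not pair the samples, which share only a number. Deviations of same-numbered libraries correlated at 0.057, -0.28 and -0.23 in RNA and 0.050, 0.029 and -0.0025 in footprints. In RNA no knockdown library correlated best with its own number, and in footprints not every one did. The highest RNA values were 0.31, of knockdown replicate 2 with control replicate 3, and 0.24, of knockdown replicate 3 with control replicate 2. Translational efficiency had 0 calls under every alternative run, each with the same 12 libraries or fewer. For these changes the cause was not tested. Footprint density and its alternative scaling were not run, since coding lengths were not used here. Footprint depth limits Psmb8, Psmb9, Psmb10 and Psmd11, whose counts per library reached 1, 3, 58 and 49 at most.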
